A study of Hordeum vulgare with 12 samples.

Results

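The genes described are those whose RNA was lower in the barley mutant nal1 than in its wild type Sebastian while staying near the wild-type level in a second mutant, blf13. They were 53 of 22437 genes tested, out of 81687 gene IDs in the count tables. A gene was a member when its mean was at least 1 CPM in Sebastian and at least 0.5 CPM in Bonus, its highest nal1 library lay below its lowest Sebastian library, the nal1/Sebastian ratio of means was at most 0.6, and the blf13/Bonus ratio of means lay between 0.77 and 1.3. CPM is the count of a gene relative to all counts in the tested genes of that library, with TMM-scaled library sizes. It is not corrected for gene length, so levels are compared within a gene and not between genes. The members were thus chosen by their levels in all 4 genotypes and by their nal1/Sebastian and blf13/Bonus ratios, and values of both mutant comparisons only describe the choice, counts of members past a test included.

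The libraries came from barley (Hordeum vulgare) at 7 days, from the lowest centimetre of the shoot with the apex, after the first leaf had been taken off. The 4 genotypes were the cultivar Bonus, the mutant blf13 in Bonus, the cultivar Sebastian, and the mutant nal1 in Sebastian. Each had 3 biological replicates, and each replicate pooled 6 plants, so plant-to-plant variation is not seen. Each allele was present in 1 background, and any other difference between a mutant line and its cultivar belongs to the same contrast. Fewer cells of a type and less RNA per cell cannot be told apart in such pieces of tissue.

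By the title of the series, the allele blf13 adds function to the barley orthologue of a rice gene, NARROW LEAF1. In rice that gene encodes a protein with the features of a trypsin-like peptidase, and its mutants have narrow leaves with fewer veins. In grasses the base of the shoot holds the apical meristem and the dividing and elongating bases of young leaves, where leaf width is set. The gene tables give IDs of the MorexV3 annotation without names, and the reference table matched 0 of them. No role can therefore be given to a member, the mutated gene itself and tissue markers were not analysed here, and no sequence is shown.

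Reads counted in genes ranged from 14831979 to 62995658 per library, with a median of 27400641. In nal1 and Sebastian, 12.4% to 17.8% of reads were unmapped. The lowest total was that of nal1 replicate 1. Of the 53 members, 15 had fewer than 10 counts in at least 1 nal1 library, and 2 of them had no count in one. Their ratios carry a large counting error.

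The rule narrowed step by step. The minimum levels were met by 17825 tested genes. In 3635 of these every nal1 library lay below every Sebastian library, and 153 of them had a nal1/Sebastian ratio of at most 0.6. Among these 153 genes, 84 had a blf13/Bonus ratio above 1.3, 16 had one below 0.77, and 53 lay between. The members just inside the limit of 0.6 had ratios of 0.582, 0.588 and 0.599, and the genes just outside it had 0.602, 0.604 and 0.605. On the blf13/Bonus side the highest member stood at 1.29 with the next gene outside at 1.301, and the lowest member stood at 0.782 with the next gene outside at 0.765. Nothing separates the members from their neighbours at these limits.

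**Figure D1:**
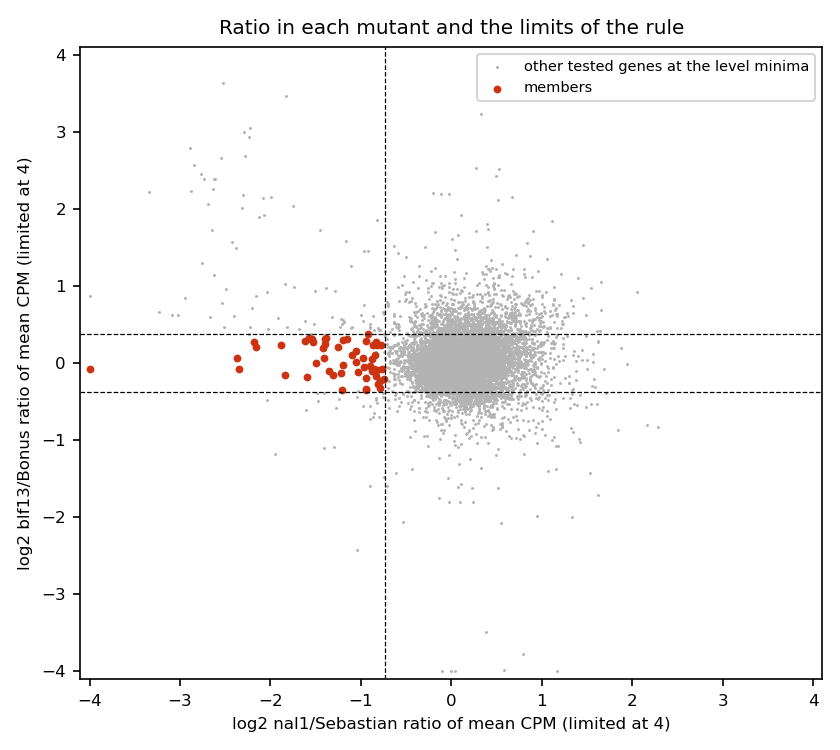
Ratio of mean CPM in nal1 against Sebastian (horizontal, log2) and in blf13 against Bonus (vertical, log2) for tested genes that met the minimum levels; red points are the 53 members, dashed lines are the limits of the rule, and values beyond 4 are drawn at the edge. Members lie in the band between the horizontal lines left of the vertical line, where any gene whose nal1 and Sebastian libraries overlap is not a member. Of the genes above that band, 84 had every nal1 library below every Sebastian library.

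Across the members the nal1/Sebastian ratio had a median of 0.467, with quartiles of 0.374 and 0.545. In 30 members the nal1 mean was at most 0.5 of the Sebastian mean, and in 5 it was under 0.25. All 3 nal1 libraries took part. The median member stood at 0.435 of the Sebastian mean in nal1 replicate 1, at 0.422 in replicate 2 and at 0.470 in replicate 3, whereas the median of all tested genes at the minimum levels stood between 0.989 and 0.994 in the same libraries. In blf13 the median member stood at 1.003 to 1.04 of the Bonus mean, depending on the library. Single members still differed between blf13 and Bonus, within the window of the rule. Of the 53 members, 46 passed the edgeR quasi-likelihood test of nal1 against Sebastian at an adjusted p under 0.05. Over all tested genes 5.42% were lower by that test. The rule used this contrast, so the count describes the choice. Of the 7 members that did not pass, 6 had fewer than 10 CPM in Sebastian, but so had 41 of all 53 members (77.4%). Of tested genes at the minimum levels 86.9% did not pass, and 36.3% did not pass and had fewer than 10 CPM in Sebastian. The part of level in not passing was not tested.

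**Figure D2:**
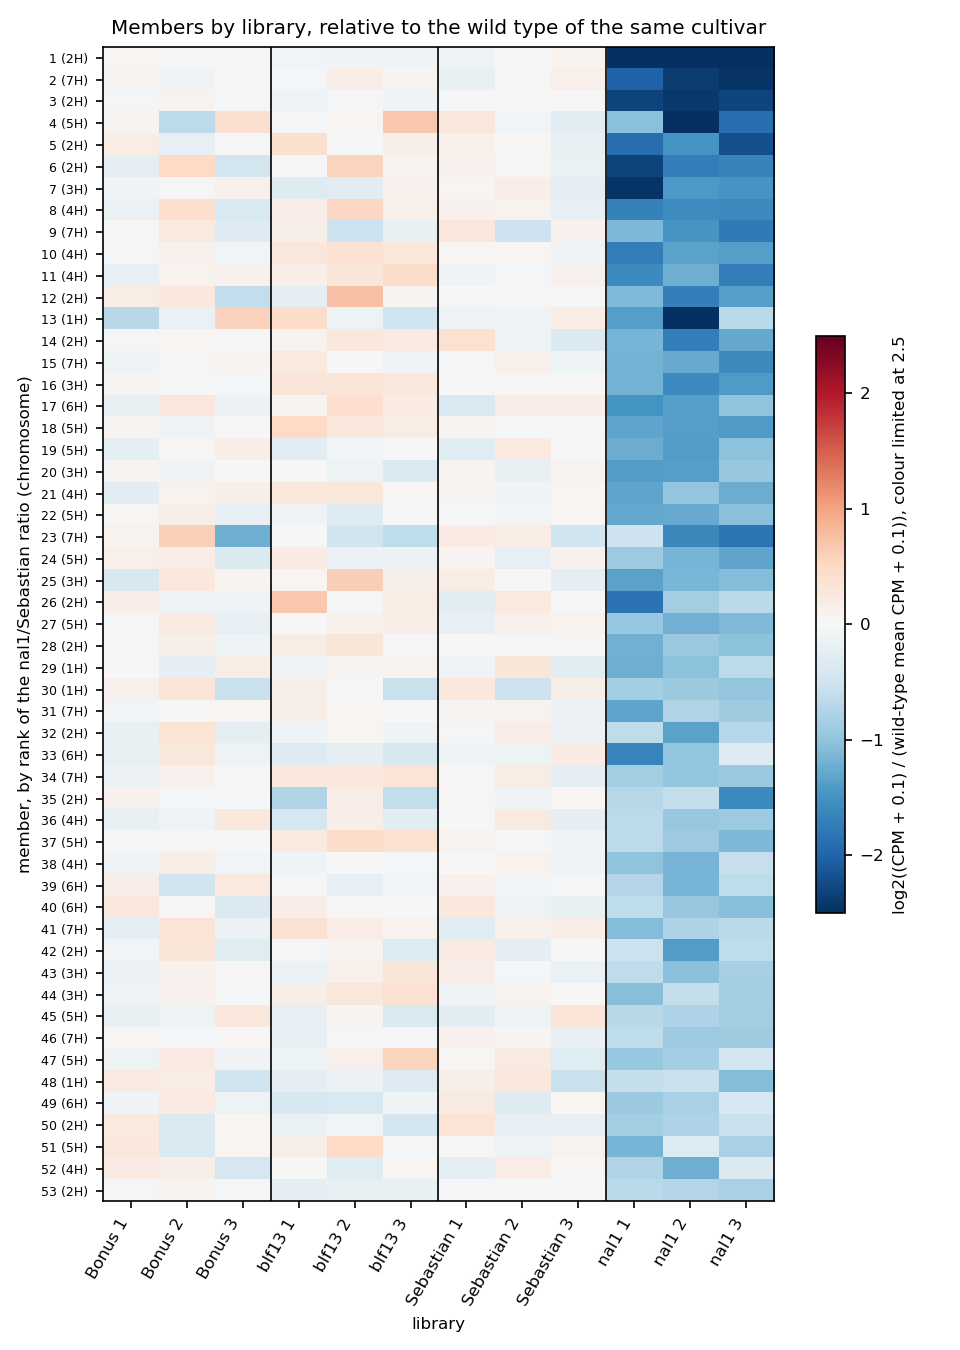
Level of each member (rows, by rank of the nal1/Sebastian ratio, chromosome in brackets) in each library (columns), as log2 of CPM plus 0.1 over the mean of the wild type of the same cultivar plus 0.1; blue is lower, red is higher. The nal1 columns are blue throughout, and the blf13 columns scatter around the Bonus level.

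HORVU.MOREX.r3.2HG0190650, on chromosome 2H, had the lowest ratio among the 12 members with at least 10 CPM in Sebastian. It stood at 174, 175 and 182 CPM in the Sebastian libraries and at 35.3, 33.0 and 35.7 CPM in nal1. It stood at 182, 200 and 182 CPM in Bonus and at 177, 183 and 176 CPM in blf13. The 9 libraries of the other genotypes thus lay close together and far above the 3 nal1 libraries. The log2 fold change of nal1 against Sebastian was −2.35 (SE 0.06).

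HORVU.MOREX.r3.2HG0193150 had the second lowest ratio by that rule and lies on the same chromosome. Its Sebastian libraries had 59.1, 56.2 and 49.05 CPM, and its nal1 libraries had 10.9, 16.4 and 17.1 CPM. In Bonus it had 60.7, 101 and 51.8 CPM, and in blf13 it had 71.2, 104 and 74.9 CPM. The nal1 libraries lay below all others, and replicate 2 was well above replicates 1 and 3 in both Bonus and blf13. The log2 fold change of nal1 against Sebastian was −1.86 (SE 0.24).

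The high replicate 2 recurred in other members. A 4H gene at rank 8 of the ratio had 83.5, 127 and 72.3 CPM in Bonus and 106, 136 and 102 CPM in blf13, while its Sebastian mean was 89.2 ± 10.5 CPM and its nal1 mean 29.1 ± 1.37 CPM (SD, n = 3 each). A 3H gene at rank 25 had 32.8, 52.0 and 45.3 CPM in Bonus and 44.6, 66.7 and 48.2 CPM in blf13. In 14 of the 53 members (26.4%) replicate 2 was the highest library of both Bonus and blf13, against 11.1% of tested genes at the minimum levels. A larger share was not particular to that number. Replicate 1 was the highest library of both nal1 and Sebastian in 11 members (20.8%, against 10.8% of those genes). For the other numbers the shares of members ran from 9.43% to 13.2%, against 10.1% to 14.4%. The blf13 library of replicate 2 had the most unmapped reads of all 12, at 29.8%, and its part in these levels was not tested. Without replicate 2 of both genotypes, 70 genes met the rule, 46 of them members.

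The other 10 members with at least 10 CPM in Sebastian, where counting error is small, had higher ratios. A 3H gene at rank 16 had 32.9, 33.2 and 32.7 CPM in the Sebastian libraries and 14.4, 10.9 and 12.2 CPM in nal1, a fitted log2 change of −1.41 (SE 0.08). A 5H gene at rank 18 had 17.0, 15.8 and 15.5 CPM in Sebastian and 6.44, 6.12 and 6.00 CPM in nal1, or −1.38 (SE 0.10). In both genes the Sebastian libraries lay close together, and every nal1 library was far below them. The gene at rank 16 had 28.4, 25.9 and 26.5 CPM in Bonus and 33.6, 33.8 and 32.5 CPM in blf13. The gene at rank 18 had 16.1, 14.4 and 15.2 CPM in Bonus and 21.7, 18.2 and 17.3 CPM in blf13. Both genes were thus higher in blf13 than in Bonus in every library, within the window of the rule.

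Toward the limit of the rule the relative distance between nal1 and Sebastian shrank, as it must, since the ranks follow their ratio. A 2H gene at rank 28 had 57.1, 54.0 and 57.3 CPM in Sebastian and 24.3, 29.3 and 27.4 CPM in nal1. A 7H gene at rank 31 had 44.8, 45.6 and 38.7 CPM in Sebastian and 17.2, 25.4 and 23.05 CPM in nal1. For a 4H gene at rank 38 the Sebastian libraries had 18.8, 20.2 and 17.6 CPM and those of nal1 had 9.32, 8.36 and 12.7 CPM. Relative to their mean, the nal1 libraries spread more in the genes at ranks 31 and 38 than in the gene at rank 28. The member with the highest ratio, a 2H gene at rank 53, had 44.3, 45.35 and 45.5 CPM in Sebastian and 28.3, 26.9 and 25.7 CPM in nal1. It had 45.7, 49.0 and 46.2 CPM in Bonus and 39.7, 41.4 and 41.4 CPM in blf13, and so was lower in both mutants. The spread within nal1 and within Sebastian was small against the difference between them (log2 change −0.74, SE 0.05). The opposite case was a 7H gene at rank 23, among the 7 members that did not pass the test. It had 20.5, 20.1 and 12.5 CPM in Sebastian and 12.3, 5.77 and 4.96 CPM in nal1, so that the highest nal1 library almost reached the lowest Sebastian library (log2 change −1.24, SE 0.40).

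At the other end were 41 members under 10 CPM in Sebastian (77.4%, against 40.5% of tested genes at the minimum levels), 18 of them under 2 CPM. A 7H gene at rank 2 had 5.08, 5.91 and 6.37 CPM in Sebastian and 1.34, 1.04 and 0.983 CPM in nal1, from 73 nal1 counts in all. A 5H gene at rank 4 had 1.68, 1.29 and 1.12 CPM in Sebastian and 0.604, 0 and 0.295 CPM in nal1. For that gene nal1 rested on few reads, and replicate 2 had none. A 3H gene at rank 7 had 2.71, 2.97 and 2.21 CPM in Sebastian and 0.402, 0.915 and 0.885 CPM in nal1. A 4H gene at rank 11 had 6.67, 6.94 and 7.64 CPM in Sebastian, 2.28, 2.96 and 2.06 CPM in nal1, and 6.57, 8.07 and 8.22 CPM in Bonus. A 5H gene at rank 22 had 9.08, 8.52 and 9.33 CPM in Sebastian, 3.62, 3.69 and 4.28 CPM in nal1, and 9.76, 10.5 and 8.27 CPM in Bonus. In the genes at ranks 11 and 22 the wild types overlapped and nal1 lay under both. The members varied more between replicates than tested genes did. The median coefficient of variation of the members was 19.3% in nal1, 11.7% in Sebastian, 14.3% in Bonus and 12.05% in blf13. Over all tested genes at the minimum levels it was 7.51%, 6.16%, 8.60% and 6.52% in the same order. Those genes were less often under 10 CPM, and the part of level in this difference was not tested.

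The rule was also applied without 1 nal1 or Sebastian library, and that library was then read. The libraries it was set against had been chosen as high or low, which favours separation, and the shares of all tested genes are free of that choice, so the gap between them is no independent support. Without nal1 replicate 1, 73 genes met the rule, and in 60 of them (82.2%) the left-out library lay below every Sebastian library, as it did in 34.3% of all tested genes. Without nal1 replicate 2 it was 62 of 71 genes (87.3%, against 33.6% of all), and without nal1 replicate 3 it was 62 of 66 (93.9%, against 34.5%). The left-out Sebastian library lay above every nal1 library in 52 of 56 genes for replicate 1 (92.9%, against 27.7%), in 56 of 58 for replicate 2 (96.6%, against 31.7%) and in 61 of 66 for replicate 3 (92.4%, against 31.1%). The median ratio read from the left-out library was 0.584, 0.518 and 0.534 for nal1 replicates 1, 2 and 3, and 0.495, 0.469 and 0.555 for those of Sebastian. The members had a median ratio of 0.467 over all libraries. These medians come from different sets of genes, so they do not show what leaving a library out changed.

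The rule set no ratio between the cultivars, so the members could be compared between Sebastian and Bonus, although asking for high Sebastian libraries favours genes that stand high there. The Sebastian/Bonus ratio had a median of 0.946. It lay between 0.77 and 1.3 in 32 of 53 members (60.4%), against 84.4% of tested genes at the minimum levels. The libraries of both cultivars overlapped in 29 members (54.7%), against 67.9% of those genes. In 17 members (32.1%) every Sebastian library lay below every Bonus library, as in 17.5% of all tested genes, and in 7 (13.2%) every one lay above, as in 15.9%. The members thus stood apart between the wild types in a larger share than the background, more of them with Sebastian below. Members were also more often under 10 CPM than tested genes, and the part of their level in these shares was not tested. By the edgeR quasi-likelihood test with Benjamini-Hochberg adjustment, 3 members were higher in Sebastian (5.66%, against 8.44% of all tested genes) and 7 were lower (13.2%, against 9.12%). By this test the shares are nearer to the background than those of libraries without overlap. The count of 3 was 5 without the low-count filter and 1 without Sebastian replicate 2. The median log2 fold change of Sebastian against Bonus was −0.09 in the members and −0.0032 over all tested genes.

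The members with the 2 largest differences between the cultivars in each direction, among those past the test without overlap, differed in where nal1 stood relative to Bonus. HORVU.MOREX.r3.7HG0725790, on 7H, had 2.80, 3.15 and 2.63 CPM in Sebastian and 0.860, 0.954 and 0.976 CPM in Bonus. On the log2 scale Sebastian was higher by 1.61 (SE 0.18, edgeR adjusted p = 1.90e-05). Its nal1 libraries had 1.21, 1.14 and 0.885 CPM, and so lay near the Bonus libraries.

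HORVU.MOREX.r3.7HG0690020, also on 7H, had 2.496, 3.33 and 3.47 CPM in Sebastian and 1.57, 2.38 and 1.67 CPM in Bonus, with 1.41, 1.77 and 1.92 CPM in nal1. On the log2 scale Sebastian was higher by 0.72 (SE 0.20, edgeR adjusted p = 0.0198). That call was lost without Bonus replicate 1 or 3 (edgeR adjusted p = 0.0819 and 0.0641) and without Sebastian replicate 2 or 3 (edgeR adjusted p = 0.0703 and 0.0851).

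HORVU.MOREX.r3.5HG0462380, on 5H, was the reverse, with 15.1, 17.9 and 19.9 CPM in Bonus and 14.6, 16.9 and 17.7 CPM in blf13, but 1.12, 1.68 and 1.41 CPM in Sebastian and 0.537, 0.473 and 0.639 CPM in nal1. The log2 fold change of Sebastian against Bonus was −3.64 (SE 0.15, edgeR adjusted p = 7.83e-10), a far larger step than that from Sebastian to nal1, whose ratio was 0.392.

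HORVU.MOREX.r3.2HG0212120, on 2H, had the lowest nal1/Sebastian ratio of all members. It had 32.6, 32.1 and 30.4 CPM in Bonus, 30.3, 29.9 and 29.7 CPM in blf13 and 3.66, 3.94 and 4.14 CPM in Sebastian, with Sebastian below Bonus by −3.005 on the log2 scale (SE 0.10, edgeR adjusted p = 7.43e-11). In nal1 there was 1 count in replicate 1 and none in the others. Summed over libraries, 1 count in nal1 stood against 2173 in Bonus, giving a nal1/Bonus ratio of 0.000471 (95% counting interval 1.19e-05 to 0.00263), which covers counting error only. Reads counted for this gene were thus near absent in nal1, and by CPM lower in Sebastian than in Bonus and at a like level in Bonus and blf13.

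The other 5 members that were lower in Sebastian than in Bonus by the edgeR test had smaller differences between the cultivars. A 2H gene at rank 50 had 4.65, 3.04 and 4.09 CPM in Bonus, 1.81, 1.22 and 1.21 CPM in Sebastian and 0.738, 0.788 and 0.934 CPM in nal1, and the log2 fold change between the cultivars was −1.50 (SE 0.21, edgeR adjusted p = 0.000136). A 6H gene at rank 17 had 2.78, 3.89 and 2.88 CPM in Bonus, 1.42, 2.11 and 2.12 CPM in Sebastian and 0.604, 0.662 and 0.885 CPM in nal1 (−0.74 between the cultivars, SE 0.20, edgeR adjusted p = 0.0177). In the genes at ranks 50 and 17 the levels ran from Bonus through Sebastian to nal1 without overlap. The rule itself set the step from Sebastian to nal1. The gene at rank 50 was among the 7 members that did not pass the test of nal1 against Sebastian (log2 change −0.75, SE 0.25).

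**Figure D3:**
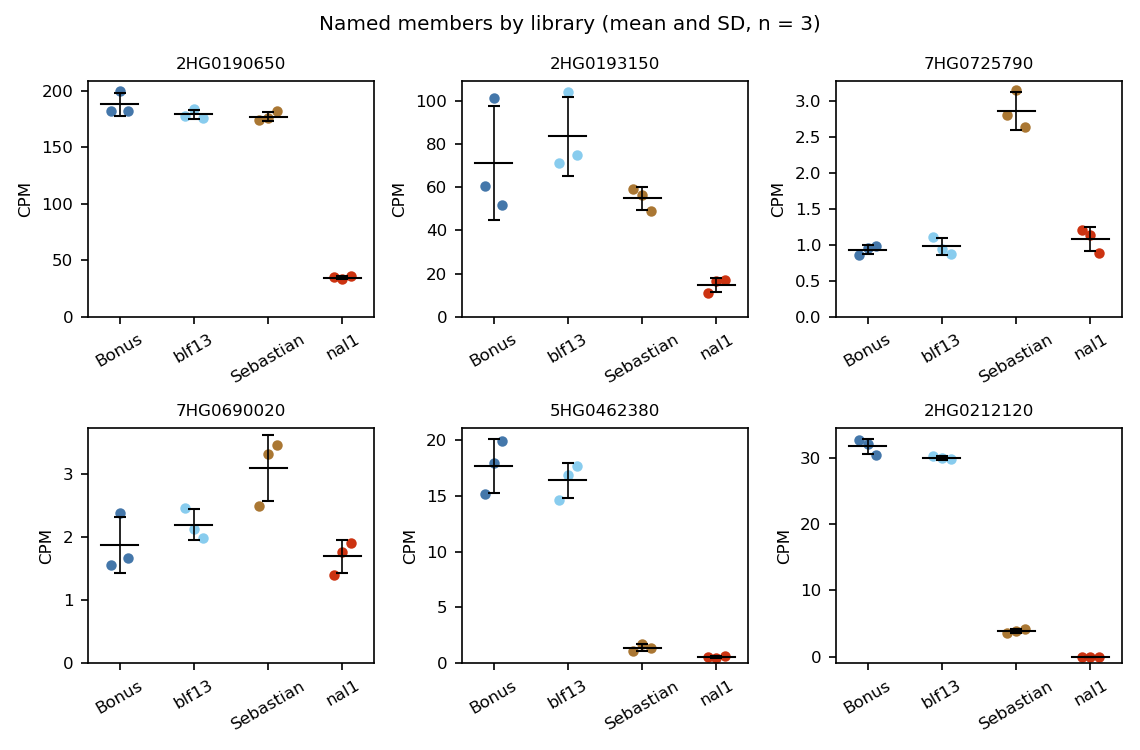
CPM of the 6 named members in each library, by genotype (points, libraries; horizontal line and bar, mean and SD, n = 3; axes differ between panels; IDs without their common prefix). In the panels of 2HG0190650 and 2HG0193150 nal1 is the low genotype, 7HG0725790 is high in Sebastian alone, and 5HG0462380 and 2HG0212120 are low in both Sebastian-background genotypes.

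Relative to the second wild type, nal1 was mostly low as well. The nal1/Bonus ratio had a median of 0.450. It was at most 0.5 in 33 members (62.3%), against 1.69% of tested genes at the minimum levels. In 41 of 53 members (77.4%) every nal1 library lay below every Bonus library, as in 24.2% of all tested genes. By the edgeR test 43 members were lower in nal1 than in Bonus (81.1%), against 19.8% of all tested genes. The nal1 libraries had been chosen as low, so these counts describe the members and are no independent result. In the other 12 members the nal1 and Bonus libraries overlapped, and in 11 of these (20.8% of members) the Sebastian mean was above the Bonus mean. The same overlap and order held in 25.8% of tested genes at the minimum levels. The rule put nal1 below Sebastian, which favours this order, so the count is no result about the members. Among these 11 members, a 2H gene at rank 12 had 1.55, 1.61 and 1.54 CPM in Sebastian, 0.961, 1.03 and 0.511 CPM in Bonus and 0.671, 0.410 and 0.541 CPM in nal1. Another, a 6H gene at rank 40, had 16.4, 12.5 and 11.9 CPM in Sebastian, 13.5, 11.3 and 8.60 CPM in Bonus and 8.72, 7.03 and 6.49 CPM in nal1, where nal1 and Bonus met in a single library of each.

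**Figure D4:**
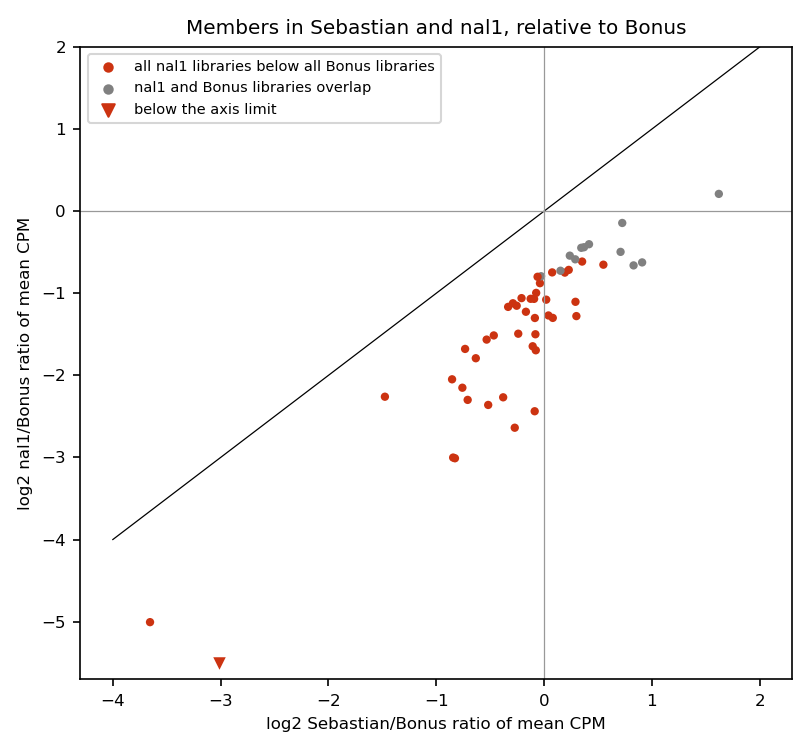
Log2 ratio of mean CPM to Bonus in Sebastian (horizontal) and in nal1 (vertical) for the 53 members; the diagonal marks equal levels in nal1 and Sebastian. Red points are the 41 members whose nal1 libraries all lie below all Bonus libraries, grey points the 12 whose libraries overlap, and the triangle is 2HG0212120, which lies beyond the axis.

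Position in the genome was not used by the rule. Chromosome 2H held 13 members (24.5%, against 16.6% of tested genes), 5H held 10 (18.9%, against 15.9%), 7H held 8 (15.1%, against 14.6%), and 1H held 4 (7.55%, against 12.6%). The gene order is that of the IDs, and no coordinates are used. Of the 13 members on 2H, 6 lay between ranks 2536 and 3010 of the 3734 tested genes there, a stretch that holds 2.08% of tested genes at the minimum levels. HORVU.MOREX.r3.2HG0190650 at rank 2862 and HORVU.MOREX.r3.2HG0193150 at rank 2950 are among them. The stretch runs from the first to the last member in the window of 500 ranks that held the most members on 2H. It was taken after the positions had been seen, and no enrichment was tested.

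No member was the next tested gene to another member. The 106 nearest tested neighbours, 1 on each side, had a median log2 fold change of −0.04 in nal1 against Sebastian. Of them 11 were lower by the edgeR test (10.4%, against 5.42% of all tested genes) and 3 were higher (2.83%, against 6.12%). The share that was lower thus lay above that of all tested genes, and the share that was higher lay below it. Most neighbours passed in neither direction, and the difference in shares was not tested.

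**Figure D5:**
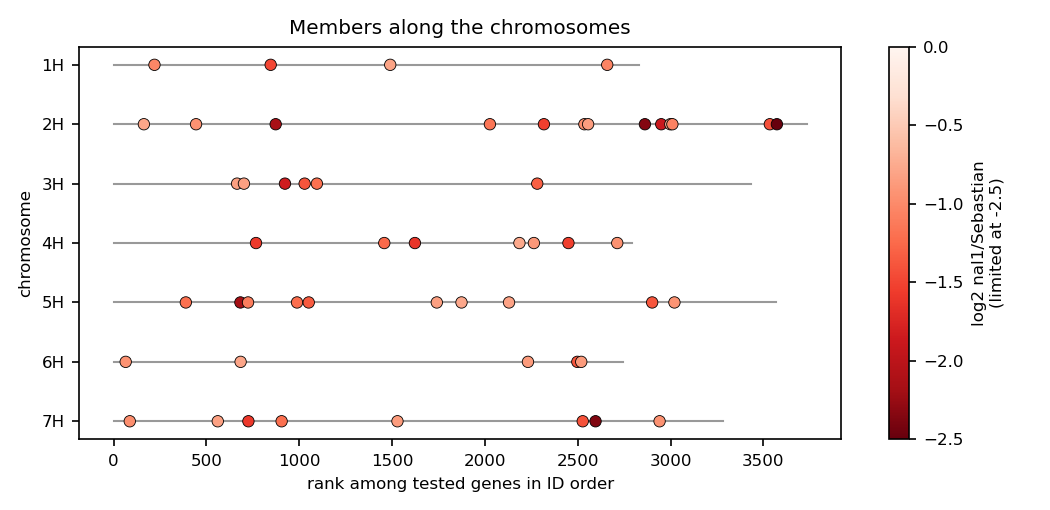
Members along each chromosome by rank among tested genes in ID order (points, members; colour, log2 nal1/Sebastian ratio of mean CPM, limited at -2.5; grey lines, all ranks). Members lie on all 7 chromosomes, and 2H carries 13 of them.

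A member on 2H stood close to genes with the reverse pattern, and was singled out after its values were seen. HORVU.MOREX.r3.2HG0125770, at rank 873 of the tested genes on 2H, had 1.38, 1.29 and 1.10 CPM in Sebastian and 0.268, 0.378 and 0.197 CPM in nal1, from 20 nal1 counts. Its level was 2.25 ± 0.32 CPM in Bonus and 2.60 ± 0.36 CPM in blf13 (SD, n = 3 each), and the log2 difference of Sebastian from Bonus was −0.85 (SE 0.20, edgeR adjusted p = 0.00831). HORVU.MOREX.r3.2HG0125790 and HORVU.MOREX.r3.2HG0125800, at ranks 875 and 876, had no count in Sebastian, Bonus or blf13. In nal1 they had 1.07, 1.14 and 1.38 CPM and 11.9, 14.1 and 13.1 CPM. In these genes, which lie within a few ranks, nal1 thus differed from all 3 other genotypes in both directions. The tested gene between the member and the others is not described here.

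Counting without regard to strand leaves out reads where genes on opposite strands overlap. Adding the counts made for either strand raised the total by over 10% in 1 member, as in 1.58% of tested genes. This 4H gene at rank 10 gained 75.7%. Its level in the unstranded counts may thus miss reads, and its summed counts may include reads of the gene on the other strand. The rule applied to those summed counts gave 55 genes, with all 53 members among them. With cyclic loess, which takes out level-dependent shifts between libraries, 90 genes met the rule, 47 of them members. The median log2 fold change of nal1 against Sebastian was 0.13 for tested genes under a mean of 10 CPM and −0.10 for those over 100 CPM.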

How the data were processed

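Reads per gene were measured by RNA-seq in 12 libraries. Per the labels, TRIzol was used for total RNA and a NEBNext Ultra kit for library preparation. Each deposited file holds raw counts of reads for every gene ID, arranged as STAR writes them, and the submitters' processing notes list STAR 2.7.3a. The sources used here do not give the genome build, the trimming or the filters. Reads mapping to several places are counted for no gene in this layout, so near-identical copies are undercounted.

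The unstranded column was used. The 4 summary lines, with 15.7% to 37.9% of reads, were left out of library sizes and tests. Genes were filtered with filterByExpr by genotype, scaled by TMM, and fitted in edgeR 4.0.16 (R 4.3.3) with 1 coefficient per genotype over all 12 libraries. Tests were two-sided quasi-likelihood F tests, adjusted over all 22437 genes by Benjamini-Hochberg with a threshold of 0.05. Standard errors were derived from the F statistic. The procedure was tested on simulated data. DESeq2 1.42.0, loess (limma 3.58.1), other filters and left-out libraries served as alternatives. P-values measure the spread between pools of plants.

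The members and lists were chosen with earlier results of these data known. IDs were printed for the 2 members with the lowest nal1/Sebastian ratio at 10 CPM or more in Sebastian, and for the 2 largest differences in each direction of Sebastian and of nal1 against Bonus that passed the test without overlap. No member met this for nal1 above Bonus. HORVU.MOREX.r3.2HG0125770 and its neighbours were added after their values were seen. The labels do not say that a replicate number pairs libraries. Deviations from the genotype means went together in blf13 and Bonus libraries of the same number (r of 0.219, 0.315 and 0.213 across genes), and these numbers were taken to pair them. Those of nal1 and Sebastian did not (−0.0997, −0.0408 and 0.110). No paired result is drawn from blf13 and Bonus.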

Additional observations from a re-analysis of the deposited data

How the results depend on the processing

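In place of 53 genes, 90 met the rule with cyclic loess, 30 and 144 with a nal1/Sebastian limit of 0.5 and 0.7, and 21 with a narrower blf13/Bonus window that begins at 0.9; the limits change the number by construction, and the cause of the change with loess was not tested. With DESeq2 size factors it was 52, without the low-count filter 58. Leaving out 1 library in turn gave 53 to 73 genes, of which 43 to 51 were members. Members lower in nal1 than Sebastian numbered 46, with 32 to 50 without 1 library and 44 with DESeq2. Members higher in Sebastian than Bonus numbered 3, with 5 without the low-count filter and 1 to 4 without 1 library, and members lower there numbered 7, with 10 without the low-count filter and 5 to 8 without 1 library. Members lower in nal1 than Bonus numbered 43, with 39 to 43 without 1 library. With a replicate block, these counts were 45, 3, 7 and 42, so the block changed none by over 1.5 times. The labels do not settle whether numbers of nal1, Sebastian and Bonus pair libraries. They were treated as shared labels only, with correlations of −0.0828 to −0.0135 for nal1 and Bonus. Of the log2 fold changes of named members, none changed sign. Depth limits the 15 members with fewer than 10 counts in a nal1 library.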
